A study of Mus musculus with 20 samples.

Results

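The chromatin of 9 genes of myelination was followed in cells of the Nkx2.1 lineage, and the genes were given by name: the regulators Myrf and Zfp488, the myelin genes Mbp, Mobp, Mog, Mag and Cnp, and the oligodendrocyte genes Opalin and Ugt8a. These 9 were among 21938 protein-coding genes of GENCODE M21, and the authors' annotation assigned 23 of its 32120 consensus accessible regions to them. Each gene was studied in a window of the gene with 20 kb on each side, and all peaks in that window were counted. ATAC-seq, which maps open chromatin with a transposase, and Cut&Tag for the histone marks H3K4me1 (enhancers), H3K27ac (active enhancers and promoters) and H3K27me3 (polycomb repression) had 2 libraries for each of 2 genotypes. Tcf4, the bHLH transcription factor removed in the mutant, was mapped by anti-Flag Cut&Tag in 2 further libraries.

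Both genotypes carried Nkx2.1-Cre, which acts in radial glia of the ventral telencephalon and their progeny, and the Ai3 reporter, which made those cells fluorescent. WT had intact Tcf4, and Tcf4 cKO was Tcf4 f/f; Nkx2.1-Cre, so that the conditional alleles of Tcf4 were deleted where Cre acts. The Tcf4-tag line carried a 3xHA-3xFlag tag on endogenous Tcf4 that is expressed after Cre acts, with no knockout counterpart among the Tcf4 libraries. GFP+ cells were sorted from neocortices of pups at postnatal day 7 or 8, with 50000 cells in each ATAC-seq or histone library and 200000 nuclei in each Tcf4 library. Such cells are a mixture of lineages, and fewer cells of a type cannot be told apart from less signal per cell in any value below. The labels number the libraries of a genotype 1 and 2 without saying whether they came from separate animals.

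Oligodendrocyte precursors leave the cell cycle and switch on a shared set of myelin genes. Myrf is a membrane-bound transcription factor that is cleaved, enters the nucleus and activates those genes together with Sox10, and Zfp488 is a zinc finger factor of the same lineage that acts with Olig2. Mbp and Mobp encode basic proteins of compact myelin, Mog and Mag are surface proteins of the myelin sheath, Cnp is an enzyme that keeps cytoplasmic channels open in myelin, Opalin is a transmembrane protein of oligodendrocytes, and Ugt8a makes galactosylceramide, a main myelin lipid.

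The sequences at the centres of 8 accessible regions are shown first because the results turn on them. Each is 151 bases of GRCm38, plus strand, 75 on each side of the centre, and distances are from the start of the gene to the centre of the region in the direction of transcription. Capitals mark the E-box CANNTG, the class of site that bHLH dimers bind.
Myrf at 7.98 kb, chr19:10232694-10232844: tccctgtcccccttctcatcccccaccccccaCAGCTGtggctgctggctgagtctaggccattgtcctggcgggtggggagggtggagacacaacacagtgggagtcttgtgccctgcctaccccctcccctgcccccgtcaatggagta
Zfp488 at -9.23 kb, chr14:33987917-33988067: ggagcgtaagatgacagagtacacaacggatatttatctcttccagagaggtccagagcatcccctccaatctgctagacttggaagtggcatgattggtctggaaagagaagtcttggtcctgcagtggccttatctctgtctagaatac
Zfp488 at -18.8 kb, chr14:33997440-33997590: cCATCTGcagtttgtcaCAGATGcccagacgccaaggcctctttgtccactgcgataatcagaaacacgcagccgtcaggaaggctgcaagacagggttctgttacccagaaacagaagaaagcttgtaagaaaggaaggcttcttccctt
Cnp at 20.1 kb, chr11:100594898-100595048: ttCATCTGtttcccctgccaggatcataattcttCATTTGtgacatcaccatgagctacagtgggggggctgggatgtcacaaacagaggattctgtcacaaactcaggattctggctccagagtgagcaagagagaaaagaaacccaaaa
Cnp at 17.6 kb, chr11:100592453-100592603: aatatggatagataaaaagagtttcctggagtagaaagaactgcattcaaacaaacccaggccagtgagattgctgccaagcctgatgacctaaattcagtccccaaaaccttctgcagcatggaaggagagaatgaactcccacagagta
Mobp at 8.40 kb, chr9:120158030-120158180: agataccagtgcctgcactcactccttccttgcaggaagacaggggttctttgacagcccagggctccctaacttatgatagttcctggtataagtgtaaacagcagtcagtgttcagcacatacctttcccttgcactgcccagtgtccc
Mag at 6.56 kb, chr7:30908234-30908384: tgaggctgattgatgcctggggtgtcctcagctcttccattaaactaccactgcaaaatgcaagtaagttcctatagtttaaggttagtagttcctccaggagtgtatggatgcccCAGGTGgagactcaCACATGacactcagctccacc
Mog at -5.45 kb, chr17:37028778-37028928: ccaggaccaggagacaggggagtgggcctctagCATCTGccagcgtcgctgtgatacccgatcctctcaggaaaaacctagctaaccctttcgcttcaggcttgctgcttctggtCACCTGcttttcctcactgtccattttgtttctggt

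The Myrf sequence, from its first intron, held 1 E-box, the palindrome CAGCTG, and 1 ACAATG on either strand, a core of the Sox family. The Zfp488 region at -18.8 kb held 2 E-boxes and 1 ACAAAG, whereas no E-box stood in the centre of the Zfp488 region at -9.23 kb. The Tcf4 peaks at the latter, merged over chr14:33987955-33988526, ran beyond the end of the printed bases at 33988067. The bases beyond that end were not searched, so an E-box under those Tcf4 peaks is not excluded. In the pair from introns of Dnajc7 beyond Cnp, the region at 20.1 kb held 2 E-boxes and the region at 17.6 kb held 0. Mag and Mog each had 2, and Mobp 0. Over all 23 consensus regions of the members, CANNTG was found in 15 (65.2%, against 49.2% of all 32120), CAGCTG in 4 (17.4% against 12.9%), ACAAAG in 7 (30.4% against 13.6%) and ACAATG in 3 (13.0% against 6.90%). The cores CTGGCAC and CTGGTAC, letters of the Myrf site, each occurred in 1 region (4.35%), against 3.53% and 1.26% of all regions. Every CAGCTG is also a CANNTG. All searches covered both strands, and the member windows had a median GC content of 51.7%, against 55.6% for all regions. A match is a run of letters and not a measured site.

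The lists of single libraries held 54162 to 72308 ATAC-seq peaks, 51510 to 72790 for H3K4me1, 22026 to 28413 for H3K27ac, 15085 to 19182 for H3K27me3, and 28606 and 16834 for Tcf4. The most H3K4me1 peaks were in the Tcf4 cKO libraries and the most ATAC-seq peaks in WT replicate 2. The values are positions and fold enrichments over the local background, the number of reads behind them is unknown, and 2 libraries against 2 can reach no exact two-sided permutation p below 0.333. A place without a peak in a list is below the caller's limit there and may still hold reads. A window, region or peak is called lower or higher where both Tcf4 cKO libraries lay on the same side of both WT libraries, and such counts are read against the share of all genes or regions called by the same rule. Over the window of Tcf4 itself, ATAC-seq peaks covered 3.52% and 5.42% in WT and 2.86% and 3.19% in Tcf4 cKO, which does not check the deletion because peak lists do not show the deleted exon.

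Accessibility near the 9 genes was lower in Tcf4 cKO at some and overlapped at the rest. The length covered by ATAC-seq peaks was lower at 4 of 9 genes, Zfp488, Cnp, Mobp and Mag, against 25.7% of 18539 genes with a peak, and higher at 0 of 9, against 7.38%. Zfp488 had 5.86% and 8.33% of its window covered in WT and 3.65% and 4.16% in Tcf4 cKO, and Cnp 8.45% and 9.19% against 7.32% and 6.18%. At Mag the values were 0.709% and 1.28% in WT, 0.469% in Tcf4 cKO replicate 1 and no peak in replicate 2. Mobp differed least of the 4, with 3.67% and 3.57% in WT and 3.27% and 2.69% in Tcf4 cKO. The other 5 genes overlapped between genotypes. With cover divided by the total of each library, Zfp488, Cnp and Mag stayed lower and Mobp did not, beside 17.1% of all genes lower and 16.6% higher. With peaks of -log10 q of at least 5 the call for Mobp was likewise lost, and with a flank of 50 kb that for Mag. By the highest fold enrichment in the window in place of the cover, Zfp488 and Mag stayed lower, Cnp and Mobp overlapped, and Mog and Ugt8a were lower (33.8% of all genes). Zfp488 was the 1 gene lower under each of these and with the gene body alone. Without WT replicate 1 all 9 genes were lower, where 71.0% of all genes were, without Tcf4 cKO replicate 1, 6 were lower (46.9%), and without WT replicate 2, 3 were higher (40.9%).

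**Figure D1:**
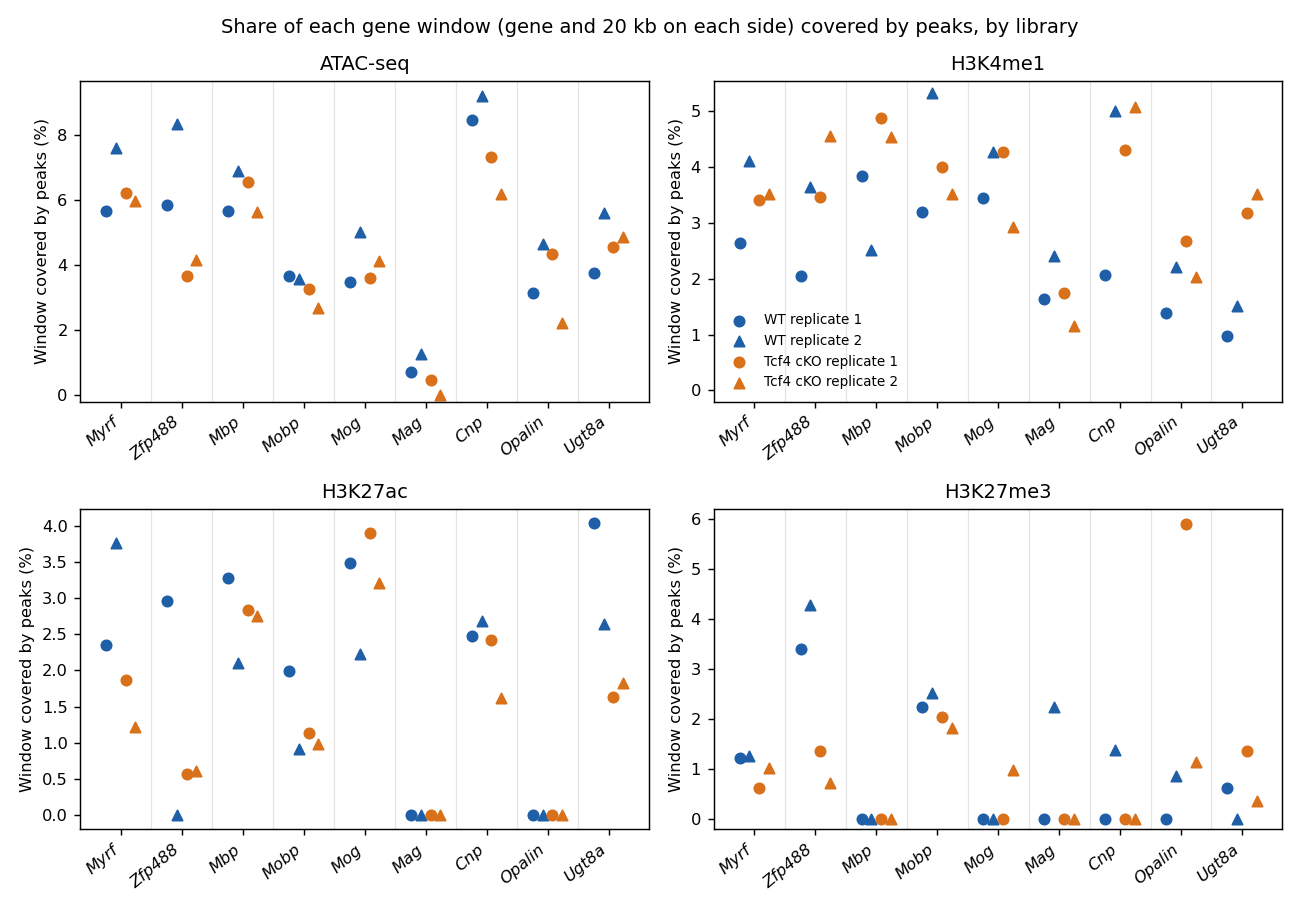
Share of each gene window (gene and 20 kb on each side, in percent) covered by peaks, with 1 point for each library, WT in blue and Tcf4 cKO in orange, replicate 1 as circles and replicate 2 as triangles. The Zfp488 and Cnp points for ATAC-seq and the Myrf and Ugt8a points for H3K27ac separate by genotype, whereas Mag and Opalin have no H3K27ac peak in any library.

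H3K27ac cover was lower at 3 genes, Myrf, Cnp and Ugt8a, of the 7 with a peak, against 21.9% of 17288 genes, and higher at none of the 7 (9.48% of all). Myrf went from 2.35% and 3.77% in WT to 1.86% and 1.21% in Tcf4 cKO. Ugt8a showed 4.04% and 2.64% in WT and 1.63% and 1.82% in Tcf4 cKO. The spread of the WT libraries was wider than the gap between the genotypes. Cnp, at 2.48% and 2.68% against 2.42% and 1.61%, was separated by a small margin. Divided by the library totals, Myrf and Ugt8a stayed lower, Cnp overlapped and Mog was higher (15.7% of all genes lower, 18.9% higher), and with peaks of -log10 q of at least 5 only Ugt8a was lower (19.5% of all genes). Gene bodies alone kept Myrf and Ugt8a, and a flank of 50 kb gave Myrf, Ugt8a and Opalin. Without WT replicate 2, 6 genes were lower (52.4% of all), and 4 were higher without WT replicate 1 (31.0%) and 1 without Tcf4 cKO replicate 2 (33.2%). By the highest peak in the window in place of the cover, Ugt8a was higher, at 4.74 and 4.78 in WT and 5.02 and 5.46 in Tcf4 cKO (12.1% of all genes), Cnp and Mobp were lower (21.6%) and Myrf overlapped. Mag and Opalin had no H3K27ac peak in any of the 4 libraries.

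H3K4me1 cover was lower at 0 of 9 genes (3.7% of 18635) and higher at 2, Mbp and Ugt8a, a direction shared by 44.7% of all genes. Ugt8a had 0.965% and 1.51% in WT and 3.18% and 3.52% in Tcf4 cKO, and Mbp 3.84% and 2.51% against 4.87% and 4.53%. The H3K4me1 lists were larger in Tcf4 cKO, and divided by the library totals Ugt8a alone was higher while Myrf, Mobp, Mog and Mag were lower (20.1% of all genes higher, 17.6% lower). With peaks of -log10 q of at least 5 the call for Ugt8a was lost, and Mbp and Mog were higher (36.7% of all genes). By the highest peak Mbp and Myrf were lower (17.8%) and none was higher (17.5%). Leaving out WT replicate 2 gave 7 genes higher (70.7% of all), leaving out Tcf4 cKO replicate 1 gave 4 higher (56.4%) and 2 lower (12.9%), and 3 were lower without WT replicate 1 (18.3%). H3K27me3 cover was lower at 3 of the 8 genes with a peak, Zfp488, Myrf and Mobp (14.9% of 13745 genes), and higher at 1, Opalin (20.9%). The Myrf window had 1.21% and 1.26% in WT and 0.618% and 1.03% in Tcf4 cKO. Its WT peaks all lay in neighbouring genes, near the shared start of Fen1 and Tmem258 and in Dagla. Within Myrf itself the only H3K27me3 peak was in Tcf4 cKO replicate 1. Zfp488 went from 3.39% and 4.28% to 1.37% and 0.729%, and at Opalin WT replicate 1 had no peak, WT replicate 2 had 0.866%, and the Tcf4 cKO libraries had 5.90% and 1.14%. The direction at Zfp488 turned with the measure. It was higher in Tcf4 cKO by the gene body alone and by the highest peak in the window, at 2.23 and 2.34 in WT and 2.91 and 3.22 in Tcf4 cKO, and Ugt8a joined it under both (17.6% and 15.4% of all genes), where no member was lower. With a flank of 50 kb Myrf and Mobp stayed lower (15.6%), Zfp488 did not, and Cnp, Mog and Opalin were higher (23.8%). Without WT replicate 1, 5 genes were lower (35.7% of all), and 2 were higher without that library (29.4%), without Tcf4 cKO replicate 1 (34.1%) or without Tcf4 cKO replicate 2 (45.5%). With a minimum -log10 q of 5, no H3K27me3 window of the 9 was lower or higher (19.9% and 17.2% of all). Mbp had no H3K27me3 peak in any library.

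Merging the peaks of the 4 libraries of each assay gave 66 accessible regions, 69 with H3K4me1, 31 with H3K27ac and 16 with H3K27me3 in the 9 windows. Of these 182, 10 were in WT alone (both of its libraries, and neither of Tcf4 cKO), and another 10 the reverse. For ATAC-seq 4 regions were of the first kind (6.06% of the members' regions, against 4.83% of all merged regions) and 3 of the second (4.55% against 3.49%). H3K27ac gave 3 (9.68% against 4.23%) and 1 (3.23% against 2.53%). H3K4me1 gave 2 (2.90% against 2.64%) and 5 (7.25% against 7.51%), and H3K27me3 1 of each (6.25%, against 4.05% and 5.36%). These counts are small, so what follows describes single places and not an excess of them.

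Myrf lies on chromosome 19, at 10208272 to 10240748 on the minus strand. Of its 2 consensus regions, the one with the larger pooled difference was in the first intron at chr19:10232206-10233332. Its ATAC-seq fold enrichment was 6.80 and 6.30 in WT and 4.93 and 3.73 in Tcf4 cKO. The authors' pooled mean of log2 normalized reads, which has no error because each genotype is 1 value, was 6.81 in WT and 5.79 in Tcf4 cKO, a difference of -1.02. H3K27ac peaks of 2.75 and 3.15 were in the WT libraries, with -log10 q of 3.32 and 4.005, and neither Tcf4 cKO library had one. They ran from 7.414 to 7.85 kb in WT replicate 1 and from 7.682 to 8.35 kb in WT replicate 2, which overlap in part. Merged, they span chr19:10232398-10233334. H3K4me1 was in all 4 libraries, at 2.75 and 3.33 in WT and 3.48 and 3.23 in Tcf4 cKO. Tcf4 peaks of both anti-Flag libraries lay there, at 4.79 and 4.98, and the stretch that both libraries shared was 30.6% of the region (65.1% was under a peak of either). This was the 1 place in the 9 windows with lower accessibility, H3K27ac in WT alone and Tcf4 in both libraries. The share of all regions with that combination was not computed, so it is not known to be rare.

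The start of Myrf behaved otherwise. Accessibility there was 6.32 and 8.11 in WT and 9.43 and 6.90 in Tcf4 cKO, so the genotypes overlapped, and the pooled means were 7.91 and 7.59. H3K27ac at the start was 2.99, 3.34 and 3.32 in the WT libraries and Tcf4 cKO replicate 1, and absent in replicate 2. H3K27me3 was listed at the start in Tcf4 cKO replicate 1 alone, at 2.35. Tcf4 was found in both libraries at 2 further places in the window, the shared start of Fen1 and Tmem258 at 36.6 kb (4.37 and 3.88) and an intron of Dagla at -17.9 kb (4.09 and 3.25), both open in all 4 ATAC-seq libraries. Inside Fads1, a neighbour, an ATAC-seq peak at chr19:10191126-10191580 occurred in WT alone (4.06 and 3.39) and another at chr19:10188285-10188812 in Tcf4 cKO alone (3.98 and 3.19). An H3K4me1 peak in an exon of Dagla, at -6.76 kb, was in Tcf4 cKO alone (2.79 and 3.80).

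**Figure D2:**
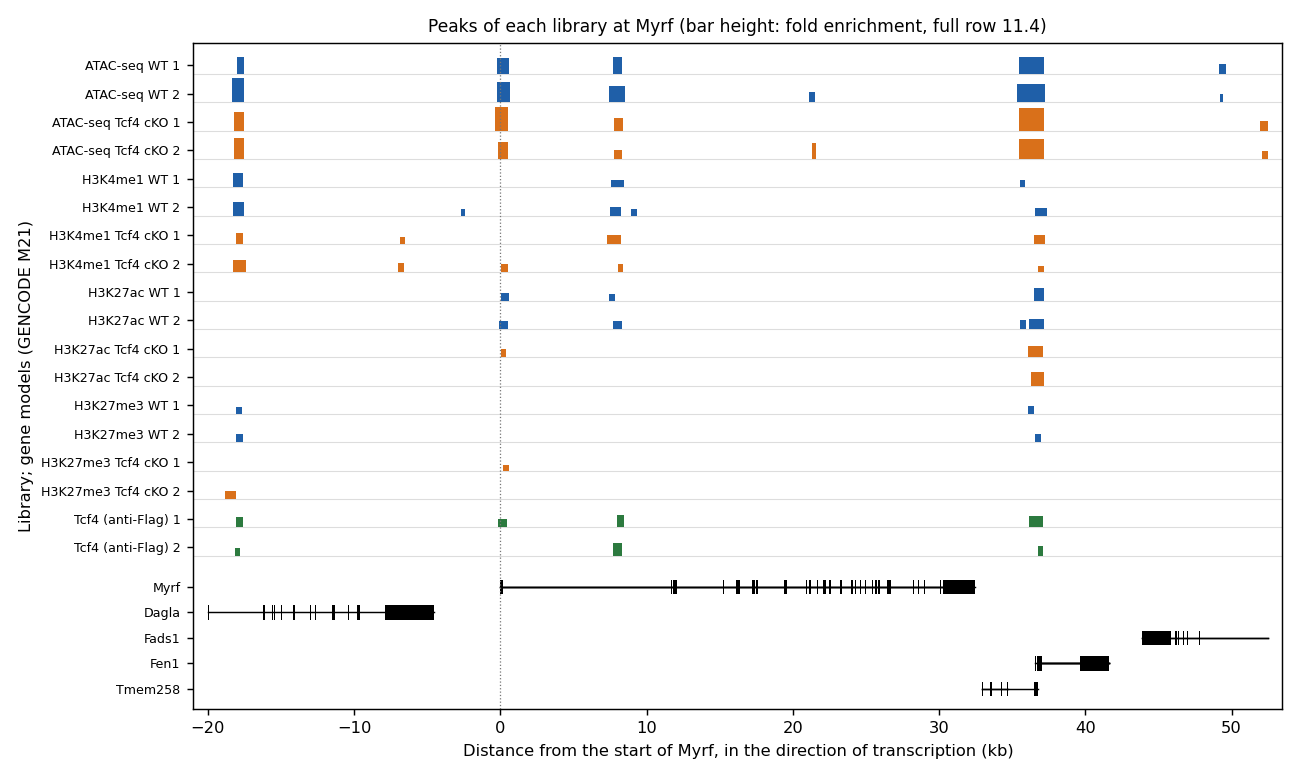
Peaks of the 18 libraries in the Myrf window against distance from the start of Myrf (kb), with bar height giving fold enrichment, WT in blue, Tcf4 cKO in orange and Tcf4 in green, and exons of protein-coding transcripts as black boxes. At 7.98 kb the ATAC-seq bars are lower in Tcf4 cKO (4.93 and 3.73) than in WT (6.80 and 6.30), H3K27ac is in WT alone and both Tcf4 libraries have a peak.

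Over the 16 ATAC-seq and histone libraries, the window cover of Myrf was most like that of Dagla (Pearson r = 0.961 of log2 of covered bases plus 100), Pdzd9 (0.959) and Slc2a10 (0.958) among genes outside the members. Dagla adjoins Myrf and shares part of its window. Among the members the values ran from 0.372 for Opalin to 0.890 for Cnp, with Mbp at 0.820 and Zfp488 at 0.413. All points share the same 16 libraries and 4 assays of unlike cover, so these coefficients describe the assays as much as the genotypes.

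Zfp488, on chromosome 14 at 33967070 to 33978764 on the minus strand, differed in several assays. Upstream of it, chr14:33987537-33988447 had ATAC-seq peaks of 5.77 and 8.14 in WT and none in either Tcf4 cKO library. Tcf4 peaks overlapped part of that region in both libraries, from -9.483 to -9.191 kb in replicate 1 (5.26) and from -9.762 to -9.281 kb in replicate 2 (3.80). Their -log10 q values were 6.94 and 2.78. H3K4me1 there was absent in WT replicate 1 and was 3.73 in WT replicate 2, 4.27 and 3.42 in Tcf4 cKO, so both mutant libraries had the enhancer mark without an ATAC-seq peak, and no library had H3K27ac at that place. The ATAC-seq peaks had -log10 q values of 7.41 and 17.1. The region lies at the end of Gm30083, a gene model on the far side of Zfp488, and the authors listed it in no consensus region.

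The region at chr14:33996943-33998088, 18.8 kb upstream in an intron of Gm30083, had the largest pooled difference of the 23 consensus regions, from 7.41 in WT to 5.94 in Tcf4 cKO, a difference of -1.47. Its fold enrichment was 8.82 and 10.04 in WT and 6.62 and 7.60 in Tcf4 cKO. Tcf4 peaks of 4.50 and 5.19 shared 60.7% of it (80.6% was under a peak of either library), and H3K4me1 was present in all 4 libraries at 4.52 to 5.54. H3K27ac came in 1 library of each genotype, 4.64 in WT replicate 1 and 4.10 in Tcf4 cKO replicate 1. In the intron of Zfp488, at 3.71 kb, fold enrichment was 5.85 and 6.11 in WT and 5.49 and 4.80 in Tcf4 cKO, and Tcf4 stood at 6.41 and 5.55. The pooled difference there was smaller, -0.36.

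At the start of Zfp488 the accessibility overlapped and marks separated the genotypes. ATAC-seq gave 4.02 and 3.65 in WT and 4.93 and 3.52 in Tcf4 cKO. H3K27me3 was absent in WT and present at 2.91 and 3.22 in Tcf4 cKO, in peaks that merge to chr14:33978017-33978919. H3K4me1 was likewise in Tcf4 cKO alone, at 3.48 and 3.02, and H3K27ac was seen in WT replicate 1 alone, at 3.19. In Gm30083, at -12.9 kb, a broad H3K27me3 region was instead in WT alone, at 2.23 and 2.12. The H3K27me3 cover of the whole window sums both. All of these H3K27me3 peaks were weak, with -log10 q of 1.36 to 1.63, near the limit of the lists.

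Cnp, on chromosome 11 from 100574904 to 100591729 on the plus strand, overlapped at its start. Fold enrichment there was 5.74 and 6.15 in WT and 6.42 and 5.27 in Tcf4 cKO, H3K27ac was 3.02 and 3.70 against 3.38 and 3.05, and Tcf4 peaks of 4.20 and 5.32 lay over it. A pair of places in introns of Dnajc7, a chaperone gene next to Cnp, showed opposite patterns close to each other. At 20.1 kb (chr11:100594525-100595421) accessibility was 7.98 and 8.62 in WT and 3.76 and 4.72 in Tcf4 cKO, H3K27ac was in WT alone (3.56 and 3.45) and H3K4me1 was in WT alone (2.91 and 3.96). At 17.6 kb (chr11:100592183-100592873) accessibility was in Tcf4 cKO alone (7.17 and 5.04), as was H3K27ac (3.34 and 3.07), while H3K4me1 was listed in Tcf4 cKO replicate 2 only. The consensus table assigns both to Dnajc7 and not to Cnp. A Tcf4 peak reached the first of these in 1 library (4.92) and the second in none. A weaker accessible region at 14.7 kb was also in Tcf4 cKO alone (3.56 and 3.08).

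Closer to Cnp, the region at the 3′ end of its protein-coding transcripts, at 6.97 kb, had 5.32 and 6.85 in WT and 3.38 and 4.52 in Tcf4 cKO, with Tcf4 in both libraries (3.87 and 5.03). The consensus region at -3.90 kb, in an intron of Ttc25, had pooled means of 7.27 and 6.58, a difference of -0.69, although its fold enrichment was 4.36 and 4.25 in WT, 4.72 in Tcf4 cKO replicate 1 and absent in replicate 2. It had H3K4me1 in all 4 libraries and no Tcf4 peak.

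**Figure D3:**
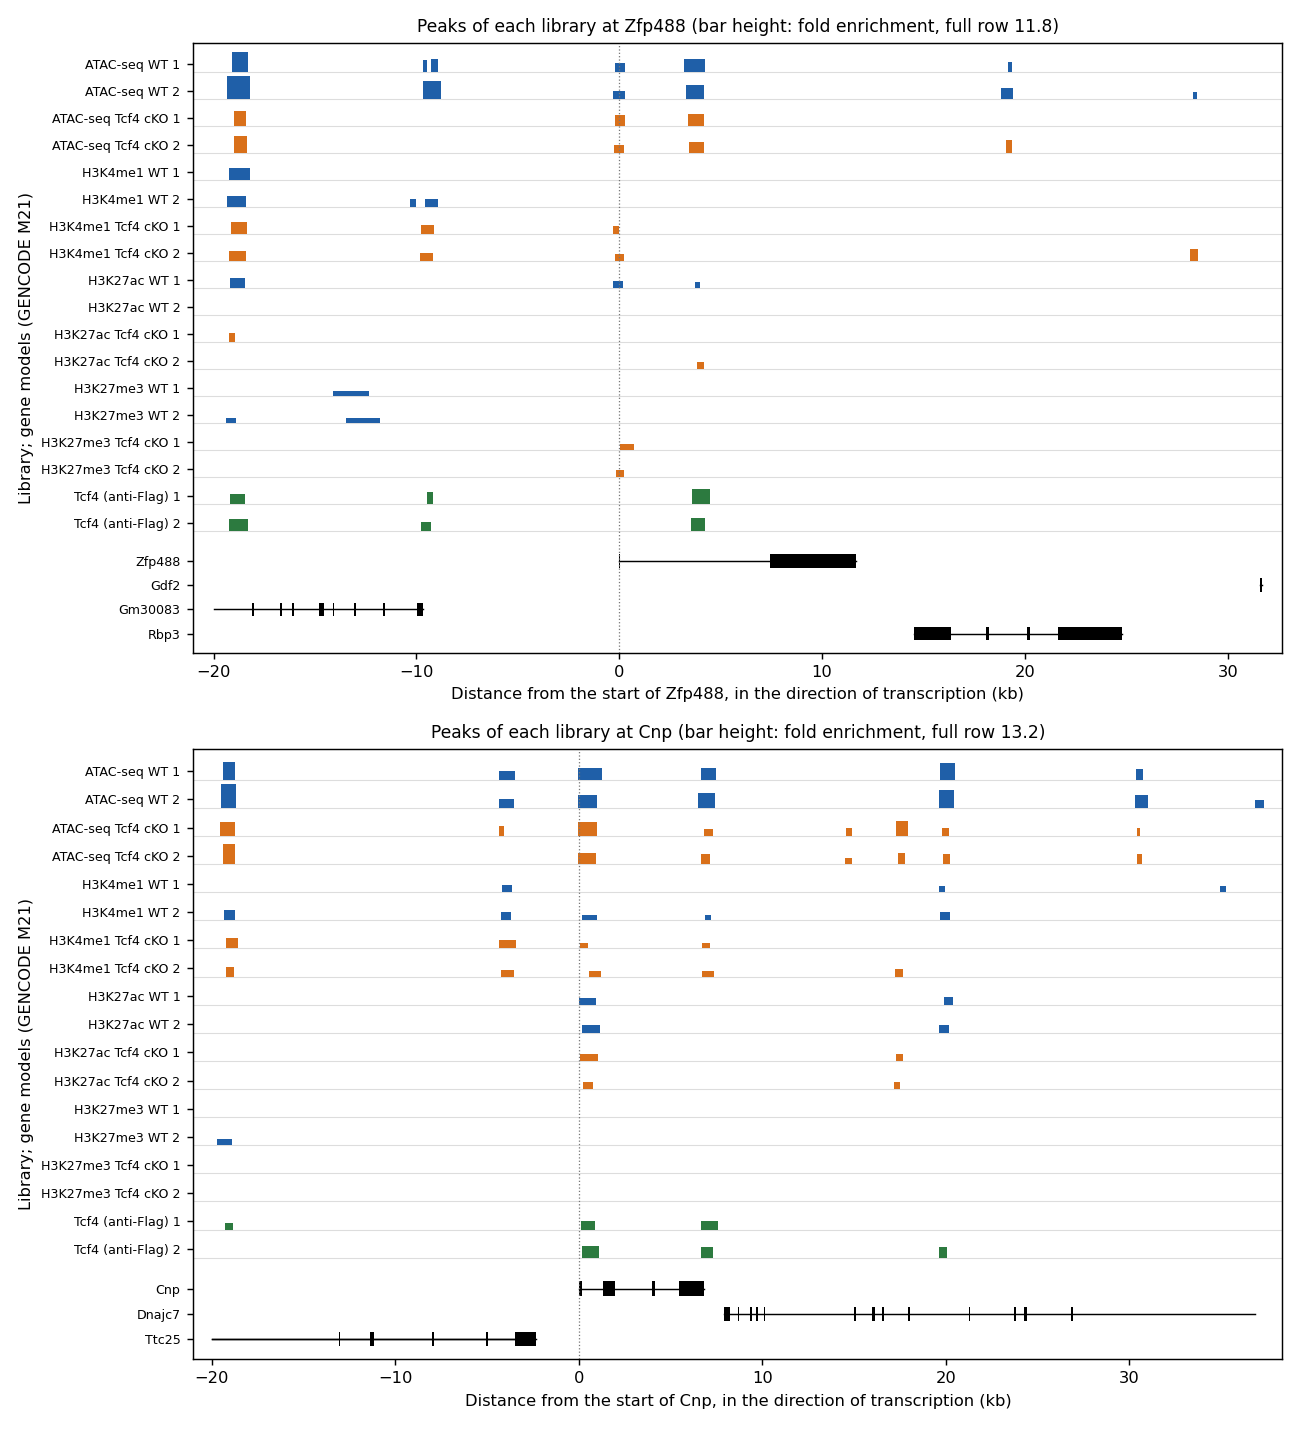
Peaks of the 18 libraries in the windows of Zfp488 (upper panel) and Cnp (lower panel) against distance from each gene's start (kb), drawn as for Myrf, with WT in blue, Tcf4 cKO in orange and Tcf4 in green. At Zfp488 the ATAC-seq peak at -9.23 kb is in WT alone (5.77 and 8.14), and beyond Cnp a peak at 17.6 kb is in Tcf4 cKO alone (7.17 and 5.04) while that at 20.1 kb is lower in Tcf4 cKO.

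Mbp, on chromosome 18 from 82475146 to 82585637 on the plus strand, had the longest of the 9 windows, 150492 bp. It also had the most merged peak regions for ATAC-seq, H3K4me1 and H3K27ac, and few differences. Its 5 consensus regions, fewer than the 6 of Ugt8a, had pooled differences of -0.34 to 0.37. The start of the long transcripts was lower in Tcf4 cKO by a small margin, at 6.12 and 6.58 in WT and 5.87 and 5.54 in Tcf4 cKO, with H3K27ac of 3.37 to 3.69 in all 4 libraries. A region 9.89 kb into the gene was higher, at 5.13 and 5.62 in WT and 7.02 and 6.19 in Tcf4 cKO, and held Tcf4 in both libraries (3.60 and 4.04). Within 1 kb of the internal start at 82554470, used by the shorter protein-coding transcripts, none of the 18 libraries had a peak. The strongest region near that start overlapped between the genotypes, at 9.24 and 8.87 in WT and 10.2 and 8.76 in Tcf4 cKO, and held Tcf4 at 4.67 and 4.77.

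Tcf4 was present in both libraries at 5 places in the Mbp window, the highest number of the 9 genes in the longest window. At the strongest of them, 33.4 kb into the gene, Tcf4 stood at 6.17 and 5.36. Accessibility there was 9.07 and 9.97 in WT and 8.84 and 9.35 in Tcf4 cKO, which overlapped, and H3K27ac was in all 4 libraries. Peaks of 1 genotype alone were weak. In an intron at 93.9 kb an ATAC-seq peak was in WT alone (3.48 and 3.36), at 46.7 kb an H3K4me1 peak was in WT alone (2.84 and 3.15), and H3K4me1 peaks at -17.6 kb (3.20 and 3.89) and 21.7 kb (3.23 and 2.90) were in Tcf4 cKO alone.

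Mobp, Mog, Mag and Opalin had little mark at their starts. Within 1 kb of the start, no library had H3K27ac at any of the 4, against 42.4% of all protein-coding genes without it, and no library had an ATAC-seq peak at Mobp, Mag or Opalin, against 34.3% of all. At Mog a single ATAC-seq peak of 3.04 was listed, in WT replicate 2. Both WT libraries had ATAC-seq peaks at the starts of the other 5 (62.4% of all genes) and H3K27ac at 4 of them, Myrf, Mbp, Cnp and Ugt8a (49.5% of all). The Mbp start counted here is that of the long transcripts, and its internal start had no peak in any library. None of the 9 starts had H3K27me3 in both WT libraries, as 14.8% of all genes did.

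**Figure D4:**
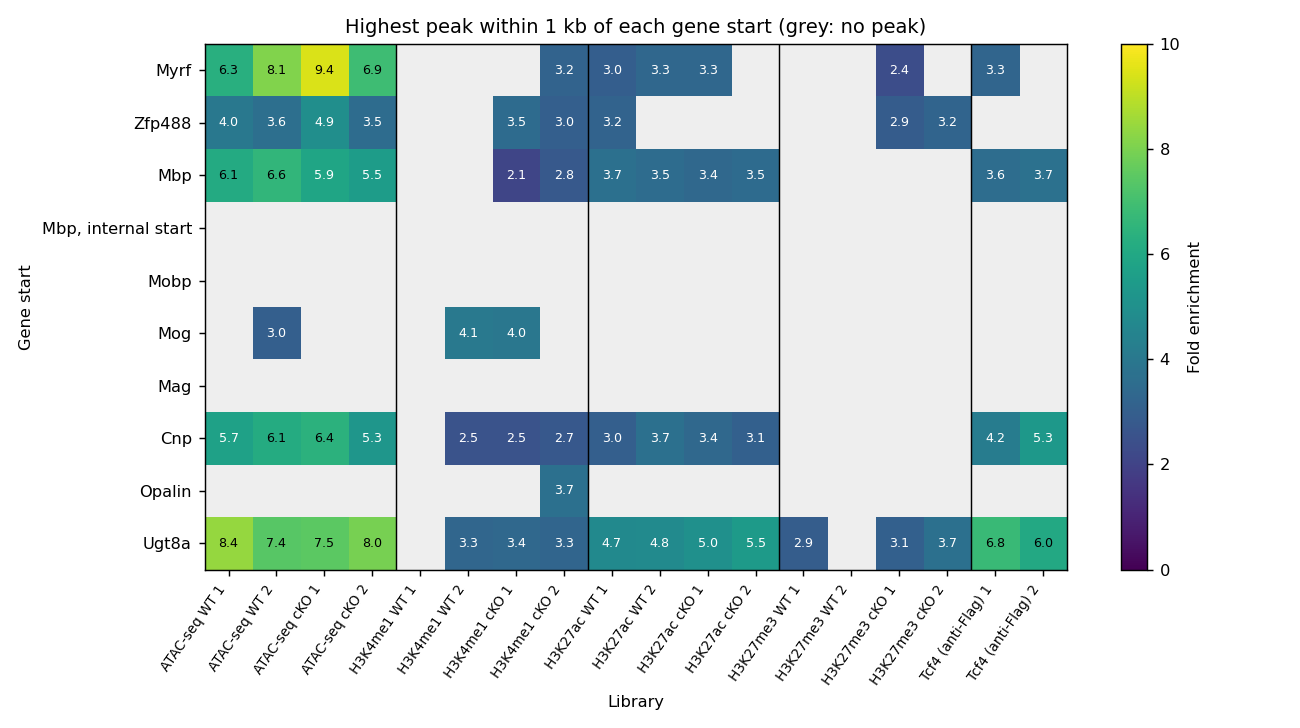
Highest fold enrichment of a peak within 1 kb of each gene start in each of the 18 libraries, with grey where no peak was listed and Mbp shown at both of its starts. Ugt8a, Cnp, Myrf and Mbp have ATAC-seq peaks in all 4 libraries and H3K27ac in at least 3, whereas Mobp, Mag and the internal start of Mbp are empty in every library.

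The accessible regions of these 4 genes lay away from the start. At Mog, on chromosome 17, the region at -5.45 kb (chr17:37028272-37029434) had the highest WT fold enrichment of all member regions, at 13.8 and 14.6 in WT and 12.8 and 10.4 in Tcf4 cKO. It also had the strongest Tcf4 peaks of any member, 8.04 and 8.64, and H3K27ac in all 4 libraries at 6.53 to 7.37. The pooled means were 8.63 and 8.39. Mobp, on chromosome 9, had a small region in an intron at 8.40 kb (chr9:120157917-120158293) with 4.92 and 3.74 in WT and no peak in Tcf4 cKO. H3K4me1 at that place was present throughout and lower in Tcf4 cKO, at 6.52 and 5.17 in WT and 4.24 and 3.33, and H3K27ac was in WT replicate 1 alone (4.46). The stronger Mobp region at 41.7 kb overlapped between genotypes, at 10.4 and 11.1 in WT and 10.9 and 10.05 in Tcf4 cKO.

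Mag, on chromosome 7, had 1 accessible region in its whole window, at 6.56 kb (chr7:30907945-30908674), with 5.36 and 4.87 in WT, 3.46 in Tcf4 cKO replicate 1 and no peak in replicate 2. H3K4me1 was there in all 4 libraries, at 3.87 and 3.71 in WT and 3.92 and 5.30 in Tcf4 cKO. No consensus region was assigned to Mag, and no Tcf4 peak of either library lay in its window. Opalin, on chromosome 19, had a region in an intron at 5.40 kb that was lower in Tcf4 cKO (6.45 and 7.58 against 5.77 and 5.61) and another at -9.68 kb, in an intron of Tll2, that was higher (5.56 and 4.59 against 6.57 and 5.85). The pooled differences were -0.31 and 0.43. Tcf4 peaks of 3.92 and 5.43 at 2.90 kb into Opalin fell where no ATAC-seq library had a peak, the only such place among the 17 Tcf4 regions of both libraries.

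Ugt8a, on chromosome 3 from 125865271 to 125938619 on the minus strand, had some distal regions that were lower, others that overlapped, and a start that overlapped. That start had 8.42 and 7.42 in WT and 7.48 and 7.97 in Tcf4 cKO, H3K27ac of 4.74 to 5.46 in all 4 libraries and Tcf4 of 6.76 and 6.03, and its pooled mean of 9.30 in WT was the highest of the 23. In an intron at 67.9 kb (chr3:125870256-125871226) accessibility was 10.3 and 11.03 in WT and 7.96 and 9.43 in Tcf4 cKO, with pooled means of 7.72 and 6.94 and Tcf4 at 4.93 and 5.32. The intron region at 39.5 kb had 9.63 and 10.05 in WT and 9.17 and 8.82 in Tcf4 cKO, with a pooled difference of -0.91 and Tcf4 in 1 library (6.74). At -31.0 kb the values were 6.03 and 6.78 against 4.73 and 4.39, with a pooled difference of -0.73 and no Tcf4 peak. The region at 55.5 kb overlapped, at 6.05 and 8.54 in WT and 8.63 and 6.87 in Tcf4 cKO, with a pooled difference of 0.10. That at 82.7 kb also overlapped, at 8.23 and 10.6 against 9.35 and 8.18, with a pooled difference of -0.26. H3K27ac at 7.69 kb, in peaks that merge to chr3:125930510-125931341, was in WT alone (3.69 and 4.04). ATAC-seq peaks there were in WT replicate 2 and both Tcf4 cKO libraries. An H3K4me1 peak at -17.7 kb was in Tcf4 cKO alone (3.72 and 3.92).

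Over the 23 consensus regions, fold enrichment was lower in Tcf4 cKO at 10, against 34.7% of all 32120, and higher at 2, against 12.9%. The count of lower regions was 12 without WT replicate 1 (57.5% of all) and 12 without WT replicate 2 (43.8%). It was 17 without Tcf4 cKO replicate 1 (49.96%) and 11 without Tcf4 cKO replicate 2 (48.4%). Higher regions numbered 3 without WT replicate 1 (19.2%) and 4 without WT replicate 2 (29.99%). They numbered 3 without Tcf4 cKO replicate 1 (22.3%) and 8 without Tcf4 cKO replicate 2 (23.9%). The authors' pooled means were lower in Tcf4 cKO at 20 of 23, beside 63.5% of all regions, with a median difference of -0.26 against -0.10 for all. Past a difference of 0.5 there were 6 lower, against 12.6% of all, and 0 higher, against 8.38%. The 6 were Zfp488 at -18.8 kb, Myrf at 7.98 kb, Ugt8a at 39.5, 67.9 and -31.0 kb, and Cnp at -3.90 kb. None of them was a start, but the only starts among the 23 regions were those of Myrf, Mbp, Cnp and Ugt8a. The share of starts among all regions past that difference was not computed. Past a difference of 1 only the Zfp488 and Myrf regions were left.

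**Figure D5:**
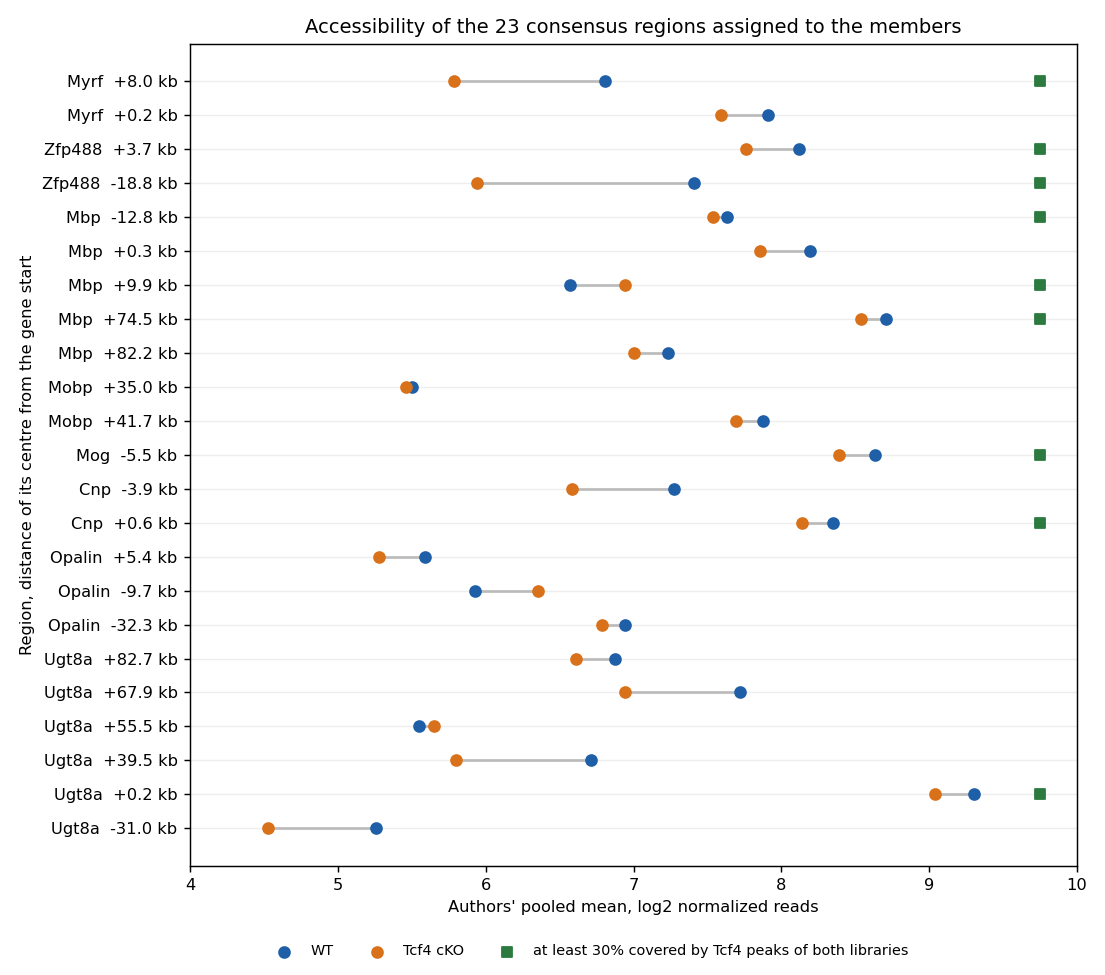
The authors' pooled mean of log2 normalized reads for each of the 23 consensus regions, WT in blue and Tcf4 cKO in orange, joined by a line, with green squares where at least 30% of the region was covered by Tcf4 in both libraries. The longest lines are Zfp488 at -18.8 kb (7.41 to 5.94) and Myrf at 7.98 kb (6.81 to 5.79), both with a green square, and the 3 regions with a higher mean in Tcf4 cKO are in Mbp, Opalin and Ugt8a.

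Tcf4 was found in both libraries in the windows of 7 of the 9 genes, all but Mag and Mobp, and 59.4% of all protein-coding genes had such a window. Mag had no Tcf4 peak in either library. Mobp had 1 in replicate 1 alone, of 7.77 at 41.7 kb with -log10 q of 16.1. At 30% cover, 9 of the 23 consensus regions held Tcf4 (39.1%, against 28.6% of all regions). Of the 6 regions with the lower pooled means 2 were among these, Zfp488 at -18.8 kb and Myrf at 7.98 kb, the latter just above the limit at 30.6%, and Ugt8a at 67.9 kb fell just below it at 28.4%. The 17 Tcf4 regions of both libraries had ATAC-seq peaks in both WT libraries at 16 and in both Tcf4 cKO libraries at 15, the Zfp488 region at -9.23 kb making the difference, beside 92.3% and 88.9% of all 14089 such regions. H3K4me1 was in both WT libraries at 8 and in both Tcf4 cKO libraries at 14, and over all such regions it was likewise more frequent in Tcf4 cKO, at 63.3% against 47.8% in WT. H3K27ac was at 9 and 9 (74.2% and 66.8% of all), and H3K27me3 at 2 and 1 (14.6% and 11.6%). At the starts, Tcf4 was in both libraries at Cnp, Mbp and Ugt8a, 3 of 9, beside 35.4% of all genes.

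Of 8 regulators that act before or with Myrf (Olig1, Olig2, Sox10, Nkx2-2, Tcf7l2, Zeb2, Chd7 and Sox8), ATAC-seq cover was lower at 4 (25.7% of all genes) and higher at 0 (7.38%), and H3K27ac lower at 1 (21.9%) and higher at 0 (9.48%). H3K4me1 was lower at 0 (3.7%) and higher at 3 (44.7%), and H3K27me3 lower at 0 and higher at 1 of the 5 with a peak (14.9% and 20.9%). The median log2 ratio of ATAC-seq cover in this list was -0.23, against -0.09 for all genes. Of 21 other genes of oligodendrocyte maturation and myelin (Mal, Cldn11, Gjc3 and others), ATAC-seq cover was lower at 3 (25.7% of all genes) and higher at 1 (7.38%), with a median of -0.11, near that of all genes. Against the same shares of all genes, H3K27ac was lower at 2 and higher at 4 of the 20 with a peak in that list (21.9% and 9.48%), H3K4me1 lower at 0 and higher at 12 (3.7% and 44.7%), and H3K27me3 lower at 1 and higher at 6 of 16 (14.9% and 20.9%). No gene of either list had ATAC-seq and H3K27ac cover separated in the same direction. Cnp alone did among the 9 members, and for H3K27ac not after division by the library totals. The share of all genes separated in both assays was not computed, so these joint counts have no background to be read against.

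Markers of 7 cell types were measured in the same way. Microglia, endothelial cells and cortical projection neurons do not come from the Nkx2.1 lineage, but the sort for GFP+ cells need not remove all of them. The paper's single-cell data from such a sort held an endothelial cluster, and projection neurons were not found. All 35 marker genes had an ATAC-seq peak in at least 1 library, so that peaks in a window do not tell the types apart. ATAC-seq cover was lower in Tcf4 cKO at 1 of 5 markers of oligodendrocyte precursors, 2 of 6 of myelinating oligodendrocytes (Mag and Mobp, both members), 3 of 5 of interneurons, 4 of 5 of microglia, 1 of 4 of projection neurons, and 0 of 6 of astrocytes and 0 of 4 of endothelial cells, and was higher at 1 astrocyte marker, where 25.7% of all genes were lower and 7.38% higher. Summed over the precursor markers it was 23.6 and 34.0 kb in WT and 24.2 and 23.3 kb in Tcf4 cKO. For the interneuron markers the sums were 9.42 and 13.5 kb against 8.11 and 7.56 kb, and for the microglial markers 18.4 and 20.03 kb against 16.1 and 14.1 kb. The astrocyte sums overlapped, at 20.6 and 26.8 kb against 26.8 and 22.5 kb. The part of these cell types in the lower cover of the member genes was not tested.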

How the data were processed

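ATAC-seq and Cut&Tag peak lists of 18 libraries were used, with groups and replicate numbers from the labels. Reads had been trimmed with Trim Galore, mapped to mm10 by Bowtie2 and freed of duplicates with SAMtools by the authors, who ran MACS2 on single libraries, with broad peaks for H3K27me3. Each peak of the deposited lists has a fold enrichment (a ratio over local background) and -log10 values of p and of q, the q-value at least 1.30 on that scale for narrow and 1.00 for broad peaks. The authors' deposited consensus table gives log2 pooled means per genotype, made with DiffBind. Its fold changes, p-values and FDR, and the footprint table of motif scores, were not used, and the 2 single-cell samples were not analysed here.

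The 9 genes, the gene lists, motifs and rules were chosen with earlier results of these data known; 1 further gene of the lists is not reported here. Windows, covered lengths and overlaps (at least 1 bp) were computed with Python 3.11.15, numpy 2.4.6 and pandas 2.3.3 on GENCODE M21, sequences read from GRCm38 with pysam 0.24.0, and figures drawn with matplotlib 3.10.9. Interval and motif code was tested on simulated data. The 9 members are all named. All their consensus regions are drawn in the figure of the authors' pooled means, but only some are described in the text. Other regions are described where a peak was in both libraries of 1 genotype alone. Regions with Tcf4 in both libraries were all counted, and not all are given values. Genes of the other lists are given values only where ATAC-seq and H3K27ac cover were both separated in the same direction. No read counts per library were used, so depth is known only as peak numbers. Alternatives were other flanks, a higher q limit, scaling to library cover, fold enrichment in place of cover, and leaving out each library.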

Additional observations from a re-analysis of the deposited data

How the results depend on the processing

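No paired analysis was possible because the labels do not say that a replicate number marks a shared animal, litter or day, and the calls come from no test. With 1 library left on a side the rule is easier to meet, so counts without a library are larger by construction. Of 93 recomputed counts 61 stayed within 1.5 times the reported one. Leaving out 1 library gave 4 to 9 windows lower and 0 to 3 higher for ATAC-seq, 0 to 3 and 2 to 7 for H3K4me1, 3 to 6 and 0 to 4 for H3K27ac, and 3 to 5 and 1 to 2 for H3K27me3. It gave 11 to 17 consensus regions lower and 3 to 8 higher, and 7 to 8 windows with Tcf4. Scaling cover to the library total gave 4 H3K4me1 windows lower and 1 higher, and 1 H3K27ac window higher. The highest fold enrichment in place of cover gave 2 H3K4me1 windows lower and 0 higher, 1 H3K27ac window higher, and 0 H3K27me3 windows lower and 2 higher. With a minimum -log10 q of 5, 1 H3K27ac window was lower and 0 H3K27me3 windows were lower or higher. Gene bodies alone gave 0 H3K27me3 windows lower and 2 higher, and a flank of 50 kb gave 3 higher. A peak over at least 50% of the region left 1 consensus region higher, and a pooled difference of 1 left 2 lower. The cause of these shifts was not tested. Peak lists limit all of this to places above the caller's threshold.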
